A study of Mus musculus with 9 samples.

Results

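The genes described here code for the machinery of oxidative phosphorylation: the subunits of the respiratory chain and of ATP synthase, with the assembly factors that share their names. They were taken by name from the FPKM table (reads normalised to transcript length and library size) of cultured mouse macrophages, as genes whose symbol starts with mt-Nd, mt-Co, mt-Cytb, mt-Atp, Nduf, Sdh, Uqcr, Cox4 to Cox8 or Atp5, without names ending in -ps, and listed with 1 FPKM or more by 3 or more libraries. Of the 46078 genes listed, 110 carried such a name, and 102 of these reached that level, among 11952 genes of the whole table that did. The 102 members are 13 genes of the mitochondrial genome and 89 of the nuclear genome, and the 89 comprise 77 subunits and 12 assembly factors or related proteins (7 Ndufaf, 3 Sdhaf, Atp5s and Atp5sl).

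All cells came from C57BL/6J mice and were cultured for 8 weeks or longer. BMM were macrophages grown from bone marrow, in a medium that the labels do not describe. FLM_M came from fetal livers taken on gestational days 15 to 19 and were kept in 20% fetal bovine serum and 30% L-cell supernatant, which supplies M-CSF, the growth factor of most tissue macrophages. FLM_G were grown from fetal liver with 10% serum and 30 ng/ml recombinant GM-CSF, the factor on which alveolar macrophages depend. Each group had 3 libraries from wells of 250000 cells plated in triplicate, and nothing in the labels says that these came from separate cultures, so p-values measure the spread between libraries, which may be technical. Growth factor and serum change together between the fetal liver groups, so their effects cannot be told apart. BMM differ from both in origin, and, as their medium is not described, whether they also differ in growth factor or serum is not known here.

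Oxidative phosphorylation passes electrons from NADH (complex I) or succinate (complex II) through coenzyme Q, complex III and cytochrome c to oxygen at complex IV, and the proton gradient that complexes I, III and IV build drives ATP synthase (complex V). The mitochondrial genome codes for a few core subunits of complexes I, III, IV and V, each transcribed as part of long polycistronic RNAs from a heavy-strand or light-strand promoter. All other subunits, and the whole of complex II, are encoded in the nucleus, made in the cytosol and imported. Macrophages are known to shift between glycolysis and respiration with their activation, and alveolar macrophages, which live on GM-CSF, are known for a lipid-handling, oxidative metabolism.

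The FPKM table gives no depth, and the smallest steps between its values put the libraries at roughly 28490000 to 35640000 reads. All 8 macrophage markers (Csf1r, Adgre1, Cd68, Ptprc, Fcgr1, Itgam, Mertk, Lyz2) were above 1 FPKM in every group. They did not move together: from BMM to FLM_G the mean level of Lyz2 went from 6408 to 25600 FPKM and that of Mertk from 9.11 to 64.03, while Csf1r went from 368 to 119, Adgre1 from 201.1 to 71.97, Fcgr1 from 59.70 to 19.29 and Itgam from 79.6 to 26.5. Summed levels of erythroid, neutrophil, mast cell, lymphocyte, fibroblast and megakaryocyte markers stayed between 0 and 0.515 FPKM in every library, those of hepatocyte markers between 0.790 and 2.57, and those of endothelial markers between 1.35 and 8.14. The sex genes split the cultures: Xist was at 0 to 0.00444 FPKM in BMM, 67.2 to 74.3 in FLM_M and 41.3 to 54.7 in FLM_G, and Ddx3y at 8.47 to 10.4, 0 and 0 to 0.0165, so that sex moved with the difference between BMM and the fetal liver cultures and its part in the results was not tested. FPKM were scaled between libraries by unweighted TMM, which levels a trimmed mean of log ratios. The median log2 change over all tested genes was then -0.0015 in FLM_M against BMM. It was -0.0003 in FLM_G against BMM and 0.0017 in FLM_G against FLM_M. Below, "rose" or "fell" means an adjusted p under 0.05 in limma on this scale, on which the median gene hardly changed. In RNA of whole cultures, fewer cells of a type and less RNA per cell cannot be told apart.

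All 13 mitochondrially encoded transcripts were more abundant in FLM_G than in either other group, by 3.00-fold to 4.17-fold. In limma against BMM, 13 of 13 rose, by 1.59 to 1.94 on the log2 scale with a median of 1.78 (median fold 3.43), where 68% of all tested genes were called and 33.8% rose. Against FLM_M, 13 of 13 rose again, by a median of 1.95 and a range of 1.70 to 2.06 (median fold 3.85), beside 70.6% of all genes called and 35.5% that rose. In neither comparison did the 3 FLM_G libraries overlap with the others for any of the 13, beside 36.1% and 36.2% of all genes that lay higher without overlap. Between FLM_M and BMM none was called, beside 44.6% of all genes, and the median log2 difference was -0.12 with a range of -0.40 to 0.10. The 2 contrasts of FLM_G share the FLM_G libraries.

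mt-Co1, the catalytic core of cytochrome c oxidase that holds its heme and copper centre, was the most abundant member, at 7378, 8046 and 9787 scaled FPKM in BMM. It stood at 6820, 9004 and 8822 in FLM_M and at 26874, 29138 and 30947 in FLM_G. The lowest FLM_G library lay above the highest of the other 6, and the log2 change was 1.79 against BMM (SE 0.15, adjusted p = 6.81e-06) and 1.83 against FLM_M (SE 0.15, adjusted p = 5.26e-06). mt-Co2, which carries the copper site that takes electrons from cytochrome c, measured 3252, 3232 and 4013 in BMM, 2482, 3404 and 3200 in FLM_M and 11644, 11683 and 12516 in FLM_G. mt-Co3, the third core subunit, ranged over 2263 to 2788, 1694 to 2492 and 7994 to 8532. mt-Cytb, the only mitochondrially encoded subunit of complex III and the site of its quinone pockets, showed the same order with 3210, 3511 and 4425 in BMM, 3100, 3964 and 3814 in FLM_M and 12821, 13756 and 15200 in FLM_G, a log2 change of 1.92 against BMM (SE 0.15, adjusted p = 3.74e-06).

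The 7 mitochondrially encoded complex I subunits form the proton-pumping membrane arm. mt-Nd1, at the junction with the arm that accepts electrons, was the most abundant of them at 4363, 4650 and 5835 in BMM, 3495, 4519 and 4246 in FLM_M and 14673, 14854 and 16472 in FLM_G. mt-Nd2, mt-Nd4 and mt-Nd5, the antiporter-like pumping subunits, had means of 1853 to 2255 in BMM, 1602 to 2381 in FLM_M and 6144 to 7680 in FLM_G. mt-Nd3 and mt-Nd4l, both small, changed by 1.74 and 1.94 against BMM. mt-Nd6 is the only member transcribed from the light-strand promoter, and its mRNA is known to lack a poly(A) tail, whereas the libraries were made from poly(A) RNA. It was the lowest of the 13 at 94.6, 71.1 and 91.1 in BMM, 62.2, 64.9 and 65.2 in FLM_M and 333, 221 and 231 in FLM_G. Its change of 1.59 against BMM (SE 0.16, adjusted p = 2.69e-05) was the smallest of the 13 there, and the 3 FLM_G values spread more widely than those of mt-Co1.

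mt-Atp6, the proton channel of ATP synthase, measured 3981, 4202 and 5196 in BMM, 3747, 5134 and 4837 in FLM_M and 16185, 16216 and 17832 in FLM_G, a log2 change of 1.92 against BMM (SE 0.14, adjusted p = 3.69e-06). mt-Atp8, its small partner, went from 2893 to 3737 in BMM to 10788 to 12448 in FLM_G. The 2 genes overlap on the mitochondrial genome (mt-Atp8 ends at base 7969 and mt-Atp6 starts at base 7927), as mt-Nd4l (to 10173) and mt-Nd4 (from 10167) do, so reads of the shared bases cannot be assigned to either. The ribosomal RNAs of mitochondria, mt-Rnr1 and mt-Rnr2, which fall outside the name rule, rose from 199.1 to 526.2 and from 319.4 to 1207 mean scaled FPKM in FLM_G against BMM.

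**Figure D1:**
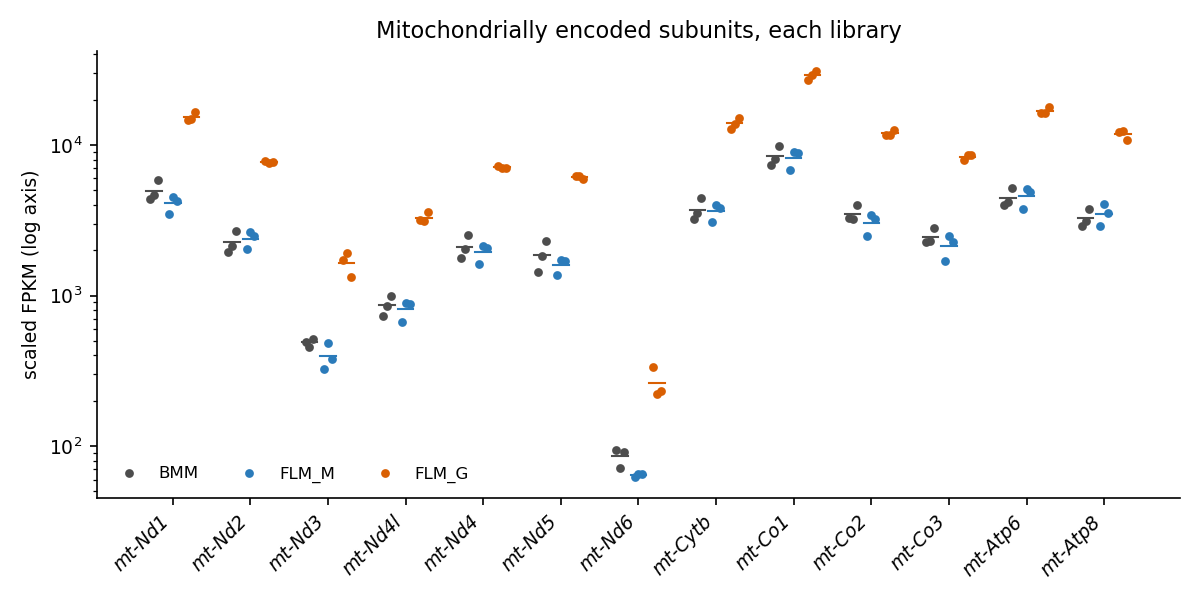
Scaled FPKM (log axis) of the 13 mitochondrially encoded subunits, grouped by complex from left to right; points are single libraries and bars the mean of 3. The FLM_G points lie above all BMM and FLM_M points for every gene, from mt-Nd6 (221 to 333 against 62.2 to 94.6) to mt-Co1 (26874 to 30947 against 6820 to 9787).

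Part of these reads also fits the nuclear genome. Aligned to the transcripts of GENCODE M21, 9 of the 13 had a near-identical annotated copy (at least 95% identity over at least 50% of the shorter transcript), mainly pseudogenes on chromosomes 1 and 2, such as Gm10925 for mt-Atp6, Gm28661 for mt-Co2 and Gm28437 for mt-Co3, each at 100% identity over its length. Copies on chromosome 1 were listed at high levels, such as Gm10925 at 5051, 5419 and 14118 mean deposited FPKM in BMM, FLM_M and FLM_G. The only copy of mt-Nd2, Gm13339, stood at 177 to 352 FPKM, and that of mt-Nd5, Gm4076, at 0.179 to 0.663. In all, the summed FPKM of all copies was 48.3% to 50.4% of that of the 13 members in every library. The sources used here do not say whether reads fitting both places were divided between them or counted at both, so the absolute levels of members with an abundant copy are uncertain. The 4 members without such a copy (mt-Nd1, mt-Atp8, mt-Nd6, mt-Cytb) had log2 changes of 1.59 to 1.92 in FLM_G against BMM, and the 9 with one 1.74 to 1.94. Only annotated transcripts were searched, so the 4 are not known to be free of copies. The end of mt-Atp8 overlaps mt-Atp6, which has a copy.

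The nuclear subunits differed less than the mitochondrial ones, except under quantile normalization. For each library the mean log2(scaled FPKM + 1) of the 89 nuclear members was subtracted from that of the 13 mitochondrial ones. The gap was 5.71, 5.79 and 6.10 in BMM, 5.55, 5.74 and 5.79 in FLM_M and 7.31, 7.24 and 7.17 in FLM_G. The FLM_G values lay above all others, and the mean gap was wider by 1.37 than in BMM (a ratio 2.59 times as large) and by 1.54 than in FLM_M (2.92 times), with an SD between libraries of a group of 0.144. The groups BMM and FLM_M overlapped. As summed deposited FPKM, the mitochondrial members stood at 6.97 to 9.36 times the nuclear members in BMM, 6.68 to 8.04 times in FLM_M and 18.2 to 19.0 times in FLM_G. In reads implied by FPKM and exon length, the 13 genes took 3.72% to 4.96% of a BMM library, 3.51% to 4.61% of an FLM_M library and 10.6% to 11.3% of an FLM_G library, while the 89 nuclear genes took 0.924% to 1.06% in all 9.

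Taken complex by complex, against the nuclear subunits of the same enzyme, the gap was wider in FLM_G than in BMM by 1.35 in complex I, 1.35 in complex III, 1.19 in complex IV and 1.45 in complex V. In each of the 4 complexes the 3 FLM_G libraries lay above the other 6. The gap of complex I was the narrowest of the 4 in all groups, 4.71 to 5.26 in BMM and FLM_M and 6.28 to 6.51 in FLM_G. No p-value is given for these gaps because the members were chosen with results of these data known.

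**Figure D2:**
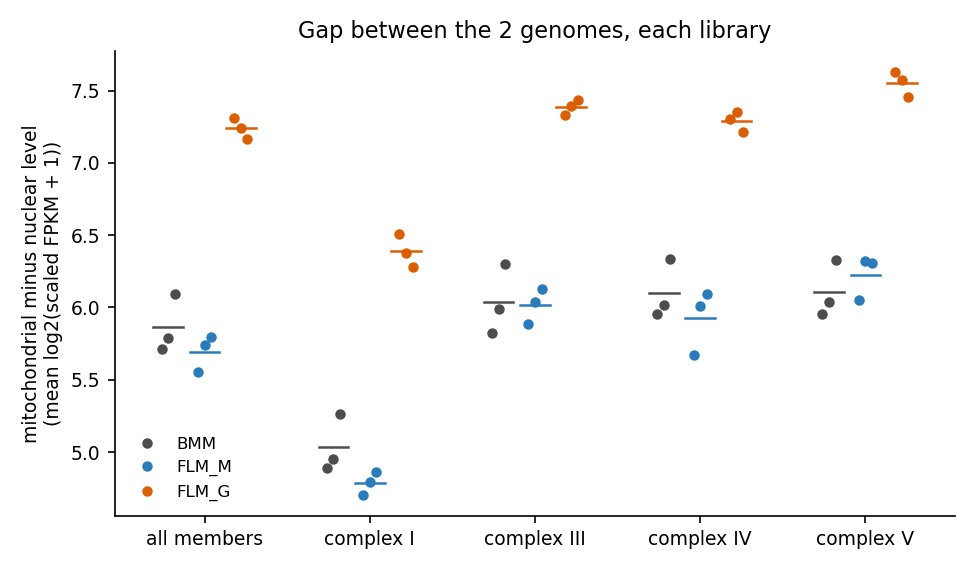
Mean log2(scaled FPKM + 1) of the mitochondrially encoded members minus that of the nuclear members (all members, left) or of the nuclear subunits of the same complex; points are libraries, bars the mean of 3. Over all members the FLM_G libraries sit at 7.17 to 7.31, and the BMM and FLM_M libraries at 5.55 to 6.10.

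Relative to the median gene, most nuclear members were also higher in FLM_G, by much less. Against BMM, 70 of 89 rose and 2 fell, with a median log2 change of 0.43 (fold 1.35), beside 33.8% of all tested genes that rose and 34.1% that fell. Only 23 of the 70 changed by more than 1.5-fold. Against FLM_M, 65 rose and 7 fell (median 0.39), beside 35.5% and 35.1% of all genes. The 7 include Cox6a2, which reached the level for members through the FLM_M libraries, so its call is not read as a result. Genes of like build moved alike: over 350 protein-coding genes with under 1500 bases of exon and a mean of at least 20 FPKM the median was 0.39 in FLM_G against BMM, with 203 that rose and 67 that fell, and over 77 cytosolic ribosomal protein genes it was 0.51, with 73 that rose. Nothing particular to the nuclear members is read from their rise.

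The direction of the nuclear members depends on the scaling. FPKM as deposited put the median gene of FLM_G 0.34 below BMM, and the nuclear members then split into 21 that rose and 16 that fell, while all genes split into 2081 and 6775. Rescaled over genes other than mt- genes, they split into 12 and 40, and with the near-identical copies also left out into 15 and 30. Against FLM_M the same 3 scalings gave 19 and 28, 6 and 57, and 12 and 46. In all of these the nuclear median stayed above that of all genes, by 0.25 to 0.37, and the 13 mitochondrial genes all rose, with medians of 1.14 to 1.46. Quantile normalization, which gives every library the same set of values and so caps the most abundant genes, turned the contrast of the 2 genomes: the mitochondrial median was 0.19 and the nuclear 0.27 in FLM_G against BMM, and 0.13 and 0.21 against FLM_M. mt-Nd1 stood at -0.10 against BMM under this setting. The changes of single nuclear genes below are relative to the median gene and carry this limit.

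**Figure D3:**
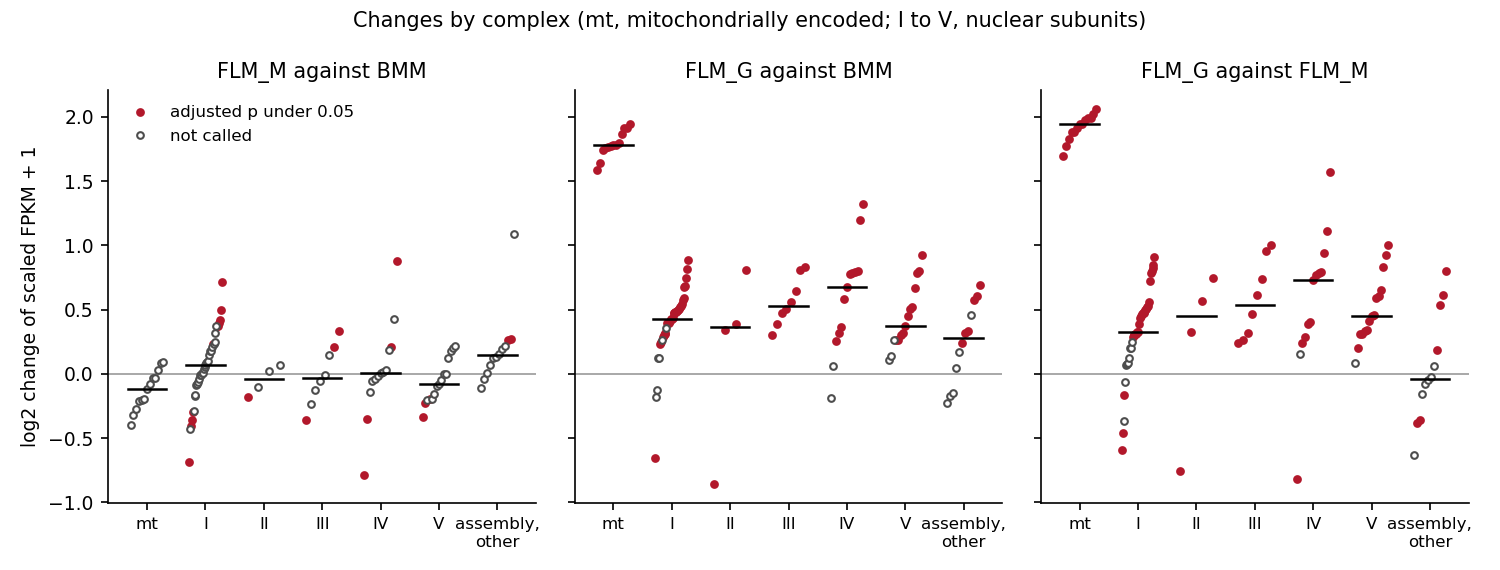
Log2 change of scaled FPKM + 1 for every member in the 3 comparisons, as mitochondrially encoded genes (mt), nuclear subunits of complexes I to V, and assembly factors and other members; filled points passed an adjusted p under 0.05 and bars are medians. The mitochondrial median is -0.12, 1.78 and 1.95 from left to right, and the highest nuclear median of a complex, that of complex IV, is 0.67 in FLM_G against BMM and 0.73 in FLM_G against FLM_M.

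Of the 37 nuclear subunits named for complex I, 30 rose and 1 fell in FLM_G against BMM (median 0.43). For this and the complexes that follow, 33.8% of all tested genes rose and 34.1% fell in that comparison. The short, abundant protein-coding genes described above had a median of 0.39 there. Ndufa6, a LYR-motif accessory subunit, rose in both fetal liver groups: it measured 54.8, 59.0 and 57.5 scaled FPKM in BMM, 76.5, 91.3 and 76.3 in FLM_M and 96.9, 106.1 and 117.5 in FLM_G. Its groups did not overlap, and its change against BMM was 0.50 in FLM_M (SE 0.09, adjusted p = 0.00193) and 0.89 in FLM_G (SE 0.09, adjusted p = 2.61e-05). Ndufa13, also known as GRIM-19, and Ndufa3 followed with 0.81 and 0.75 in FLM_G. Among the subunits that carry the redox centres, Ndufv1, which binds FMN and takes electrons from NADH, was at 14.19, 11.14 and 11.999 in BMM, 8.24, 9.82 and 10.3 in FLM_M and 16.6, 18.9 and 20.5 in FLM_G. It fell in FLM_M (-0.36, adjusted p = 0.0308), rose in FLM_G (0.55, adjusted p = 0.00250) and differed by 0.91 between the fetal liver groups (SE 0.11, adjusted p = 9.74e-05). Ndufs1, the large iron-sulfur subunit, rose by 0.32 in FLM_G. Abundant subunits that were not called in FLM_G against BMM were Ndufa8 (0.26, adjusted p = 0.0564) and Ndufb11 (0.12, adjusted p = 0.141).

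Ndufa4, first described with complex I and now assigned to complex IV, was lower in FLM_M and higher in FLM_G, with 152, 143 and 146 in BMM, 110, 136 and 114 in FLM_M and 198, 202 and 226 in FLM_G. Its change was -0.30 in FLM_M (adjusted p = 0.0233) and 0.50 in FLM_G (adjusted p = 0.000904). Its hypoxia-induced relative Ndufa4l2 was listed at 0 in all 9 libraries.

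Complex II, succinate dehydrogenase, has no mitochondrially encoded part, and its 4 subunits went different ways in FLM_G. Sdha, the flavoprotein that oxidises succinate, measured 54.9, 54.4 and 51.5 in BMM and 73.4, 70.2 and 67.8 in FLM_G (0.39, SE 0.06, adjusted p = 0.000323), and the iron-sulfur subunit Sdhb rose by 0.34. Sdhd, a membrane anchor, rose from 85.2, 76.7 and 80.0 to 146, 136 and 144 (0.81, SE 0.06, adjusted p = 3.46e-06). Sdhc, the other membrane anchor, with which Sdhd forms the heme-binding pocket, fell from 34.1, 36.7 and 37.4 in BMM, and 31.4, 35.6 and 34.0 in FLM_M, to 20.0, 19.0 and 19.4 in FLM_G. The FLM_G libraries of Sdhc lay below the other 6, and its fall by 0.86 against BMM (SE 0.06, adjusted p = 1.80e-06) was the largest of any nuclear member in that comparison. The pair of membrane anchors thus moved in opposite directions. Of the assembly factors, Sdhaf2, which attaches the flavin to Sdha, rose from 11.35 to 12.02 in BMM to 18.9 to 20.7 in FLM_G (0.69, adjusted p = 1.29e-05).

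All 8 nuclear subunits of complex III rose in FLM_G against BMM (median 0.53), and all 8 against FLM_M (median 0.54). Against FLM_M 35.5% of all tested genes rose. Uqcrfs1, the Rieske iron-sulfur protein, had the largest change against BMM, from 45.12, 42.62 and 44.95 in BMM, and 37.2, 41.6 and 42.4 in FLM_M, to 79.8, 80.0 and 78.3 in FLM_G. The change was 0.83 against BMM (SE 0.06, adjusted p = 1.57e-06) and 0.96 against FLM_M (SE 0.06, adjusted p = 5.03e-07). The hinge protein Uqcrh, which helps cytochrome c to dock, fell in FLM_M (-0.36, adjusted p = 0.0140) and rose in FLM_G (0.65, adjusted p = 0.000315), with a difference of 1.01 between the fetal liver groups. Uqcrc1 and Uqcrc2, the core proteins, rose by 0.31 and 0.48.

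Complex IV had the highest median of the nuclear classes, 0.67 in FLM_G against BMM, with 11 of 13 subunits that rose and none that fell. Cox5a, which lies on the matrix side of the enzyme, changed most among all nuclear members: it measured 145, 136 and 146 in BMM, 162, 166 and 165 in FLM_M and 364, 347 and 361 in FLM_G. Its 3 groups did not overlap, and the change of 1.32 in FLM_G (fold 2.50, SE 0.05, adjusted p = 1.60e-08) compares with 0.21 in FLM_M (adjusted p = 0.00545). Cox4i1, the common isoform of the subunit through which ATP slows the enzyme, measured 73.8, 87.3 and 81.8 in BMM, 129, 103 and 96.9 in FLM_M and 178, 148 and 246 in FLM_G. Its change of 1.197 in FLM_G (SE 0.18, adjusted p = 0.000360) came with a wide spread in that group, and the higher FLM_M values (0.42) missed the threshold (adjusted p = 0.0880). Cox6b1, on the intermembrane side, was the most abundant nuclear member, at 323 to 332 in BMM, 268 to 335 in FLM_M and 548 to 609 in FLM_G (0.80, adjusted p = 2.93e-05). Cox8a rose by 0.77, Cox6a1 by 0.32 and Cox7a2 by 0.36.

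Cox7a2l, also called SCAF1, was the nuclear member that separated the 2 fetal liver groups most. It measured 103, 102 and 99.5 in BMM, 60.6, 57.5 and 57.3 in FLM_M and 161, 179 and 189 in FLM_G. It fell by 0.79 in FLM_M (SE 0.06, adjusted p = 1.12e-05), rose by 0.79 in FLM_G (SE 0.06, adjusted p = 4.75e-06) and differed by 1.57 between them (SE 0.06, adjusted p = 3.60e-08). BMM thus lay midway, and no library of any group overlapped with another group. Cox7a1 and Cox6a2, isoforms of heart and skeletal muscle, were low: Cox7a1 stood at 5.46 to 6.71 in BMM, 3.78 to 5.27 in FLM_M and 5.11 to 5.68 in FLM_G, and Cox6a2 at 0.672 to 0.923, 2.04 to 2.56 and 0.437 to 1.21. Cox6a2 was just inside the level that members had to reach, and reached it through the FLM_M libraries, so its higher level there is given without a test. Just outside were Sdhaf3, at 0.579 to 1.19 deposited FPKM, and Cox6b2, at 0 to 1.05. Cox4i2, the isoform of lung and of low oxygen, reached no more than 0.672 FPKM (in BMM) and was listed at 0 in all FLM_G libraries, while Cox8b and Cox8c were listed at 0 in all 9.

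Of the 15 nuclear subunits of ATP synthase 12 rose and none fell in FLM_G against BMM (median 0.37). Atp5e, the epsilon subunit of the central stalk, went from 26.5, 27.3 and 25.5 in BMM, and 22.6, 33.2 and 24.7 in FLM_M, to 46.3, 50.6 and 56.9 in FLM_G (0.92, SE 0.13, adjusted p = 0.000268). The genes Atp5g1, Atp5g2 and Atp5g3 code for the same proton-carrying ring subunit with different targeting sequences. Atp5g3 rose from 58.6, 57.3 and 55.8 in BMM to 89.3, 104 and 109 in FLM_G (0.80, adjusted p = 1.70e-05). Against BMM, Atp5g2 rose by 0.37 in FLM_G and fell by 0.23 in FLM_M. Atp5g1, the lowest of the 3 with 12.9 to 21.1 over all libraries, was not called in FLM_G against BMM (0.26, adjusted p = 0.0640). Atp5c1, the gamma subunit of the central stalk, rose by 0.30. Among the subunits of the catalytic head, Atp5a1 (alpha) rose by 0.26 (adjusted p = 0.000527). Atp5b (beta) was at 143, 140 and 135 in BMM and 142, 153 and 166 in FLM_G, and was not called (0.14, adjusted p = 0.153). Atp5f1, of the peripheral stalk, was not called either (0.11, adjusted p = 0.0857).

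**Figure D4:**
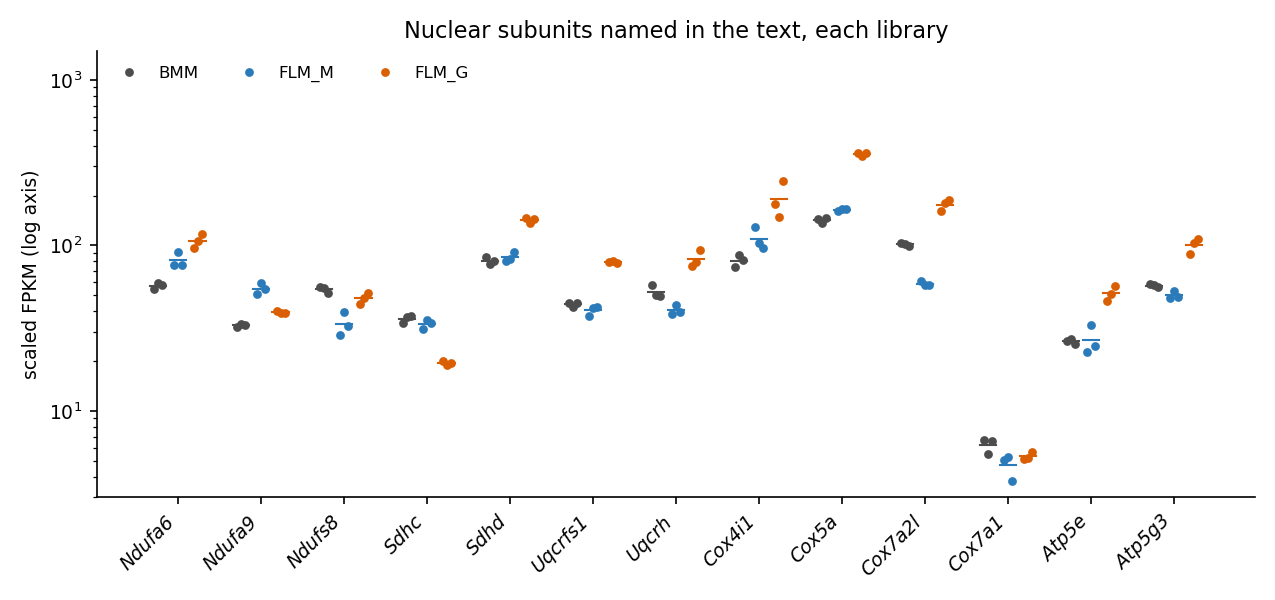
Scaled FPKM (log axis) of 13 nuclear subunits in each library, ordered by complex; points are libraries and bars the mean of 3. Sdhc (19.0 to 20.0) is lowest in FLM_G, Cox7a2l is lowest in FLM_M (57.3 to 60.6) and highest in FLM_G (161 to 189), and Cox5a stands at 347 to 364 in FLM_G.

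Of the 12 assembly factors and related proteins 6 rose and none fell in FLM_G against BMM (median 0.28). Over all tested genes 33.8% rose and 34.1% fell there. Against FLM_M 4 rose and 2 fell (median -0.04), beside 35.5% and 35.1% of all genes. In both comparisons 50% of the 12 were called, a smaller share than the 68% and 70.6% of all genes. Ndufaf4, an assembly factor of complex I, was scattered between libraries of a group, at 6.58, 7.57 and 1.77 in FLM_M and 1.471, 6.496 and 1.624 in FLM_G, beside 1.49 to 1.84 in BMM, and no comparison called it. Near-identical copies also touch nuclear members: 25 of the 89 had an annotated copy and 12 a copy that reached 1 FPKM, such as Gm10039 for Atp5g1, Gm11273 for Cox5b, Gm12338 for Cox7c and Gm6969 for Cox7a2l, and the levels of those 12 are uncertain. Without them 60 of 77 rose and 2 fell in FLM_G against BMM, with a median of 0.41.

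FLM_M differed from BMM in fewer members and in no common direction. Of the 89 nuclear members 13 rose and 11 fell (median 0.01), beside 22.7% and 21.9% of all tested genes, and the medians of the classes lay between -0.08 (complex V) and 0.14 (assembly factors). The 13 include Cox6a2, which reached the level for members through the FLM_M libraries, so its call is not read as a result. Ndufa9, an accessory subunit beside the quinone channel, measured 32.16, 33.69 and 32.97 in BMM and 50.5, 58.9 and 54.8 in FLM_M (0.71, SE 0.06, adjusted p = 1.36e-05), and 40.1, 38.8 and 39.1 in FLM_G. Ndufs8, an iron-sulfur subunit on the way to the quinone, measured 55.8, 55.5 and 51.7 in BMM and 28.9, 39.5 and 32.4 in FLM_M, a fall of 0.69 (SE 0.11, adjusted p = 0.000803), and was not called in FLM_G against BMM (-0.18, adjusted p = 0.162). Complex II was nearly level, with only Sdha called (-0.18, adjusted p = 0.0306). The X-linked members Ndufa1 (-0.17), Ndufb11 (0.04) and Cox7b (-0.06) were not called. In complex III Uqcrb (0.34) and Uqcrc2 (0.21) rose. In complex V the 3 called subunits fell: Atp5d by 0.33, Atp5g2 by 0.23 and Atp5a1 by 0.20. Left out in turn, the libraries gave 16 to 33 called nuclear members in this comparison, the fewest without BMM replicate 3 and the most without FLM_M replicate 1.

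Sdhc (chromosome 1, 171127165 to 171150603, GRCm38) fell together with the genes around it. Of 67 other tested protein-coding genes that start within 5 Mb of Sdhc, 53 fell and 5 rose in FLM_G against BMM, with a median of -0.66. Over all 172 tested protein-coding genes from 160 Mb to the end of the chromosome, 140 fell and 10 rose (median -0.70, fold 0.617), beside 150 and 136 of 422 before 160 Mb (median -0.03). These 172 genes had a median of 0.02 in FLM_M against BMM. The log2 change of Sdhc (-0.86) stands beside that median of its neighbours. So do those of Fh1 (-0.82), the fumarase of the tricarboxylic acid cycle, and Cox20 (-0.88), an assembly factor of complex IV. Both were named by the rule for the pathway lists. Tfb2m, named by the same rule and 8.40 Mb from Sdhc in this region, went the other way (0.16). This region was singled out after its values were seen. Why the region as a whole differs was not tested.

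**Figure D5:**
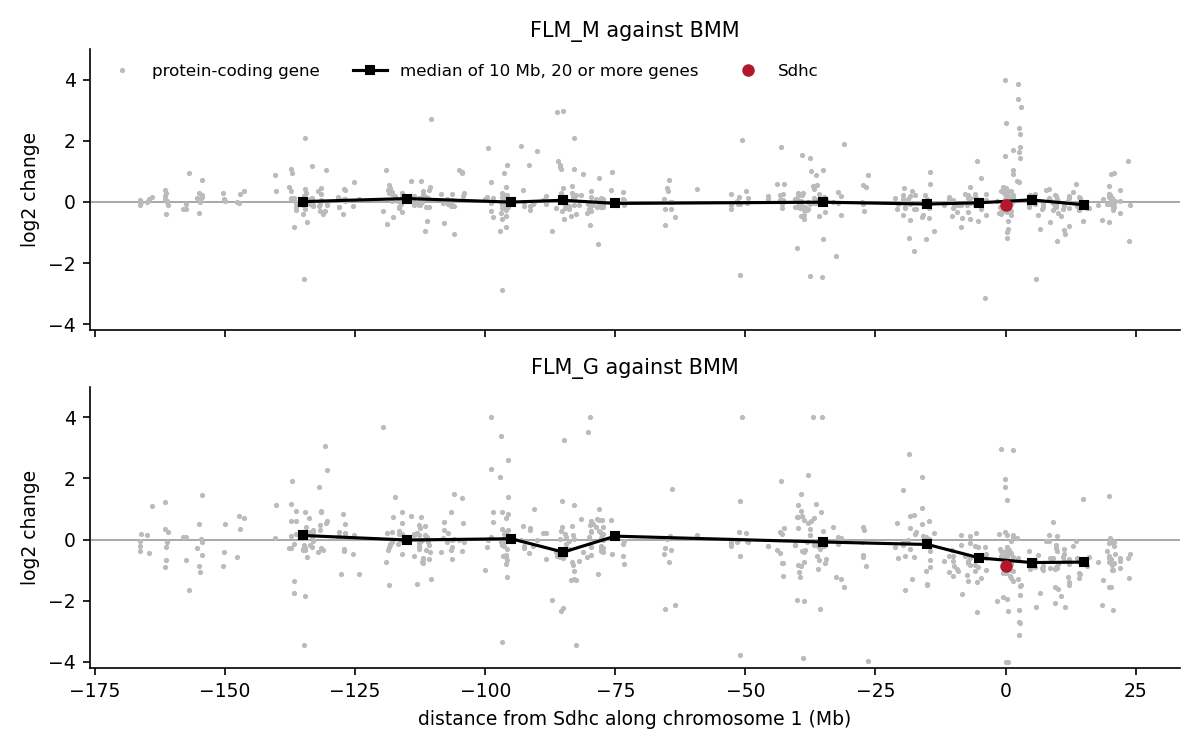
Log2 change of each tested protein-coding gene on chromosome 1 (grey), of Sdhc (red) and the median of each 10 Mb with 20 or more genes (black), against distance from Sdhc in Mb; changes beyond 4 in size are drawn at 4. In FLM_G against BMM the medians on both sides of Sdhc lie near -0.7, and in FLM_M against BMM near 0.

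In FLM_M against BMM, members on chromosome 19 were low together with their chromosome. The 394 tested protein-coding genes there had a median of -0.22, and the 5 members stood at -0.69 (Ndufs8), -0.40 (Ndufb8), -0.36 (Ndufv1), -0.11 (Sdhaf2) and -0.02 (Cox8a). Chromosome 12 had a median of -0.32 and holds 1 member, Atp5s (0.01). Chromosome 6 had a median of 0.21, and its 4 members stood at 0.71 (Ndufa9), 0.32 (Ndufa5), 0.07 (Ndufb2) and -0.30 (Ndufa4). Chromosome 15 had a median of 0.15, and its 4 members stood at 0.50 (Ndufa6), 0.42 (Ndufb9), 0.00 (Cox6c) and -0.23 (Atp5g2). The medians of the other chromosomes lay between -0.04 and 0.06. In FLM_G against BMM the X chromosome had the highest median, 0.21 over 320 tested genes. Its members stood there at 0.68 (Ndufa1), 0.67 (Cox7b) and 0.12 (Ndufb11). Across the 89 nuclear members the own log2 change was set against the median of the neighbours within 5 Mb. The Pearson r was 0.44 in FLM_M against BMM and 0.46 in FLM_G against BMM. By rank (Spearman) the correlations were lower, 0.32 and 0.23. These are a description across genes that share libraries and, in part, neighbours. These chromosomes were also chosen after their values were seen, and the cause was not tested.

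The genes that make and keep mitochondrial RNA moved in both directions and by less than the mitochondrial transcripts. Of 11 tested genes of mitochondrial DNA maintenance and transcription, 5 rose and 2 fell in FLM_G against BMM, none by more than 1.5-fold. For this and the lists that follow, the shares over all tested genes in that comparison were 33.8% that rose and 34.1% that fell. Tfam, which packages mitochondrial DNA and starts its transcription, was at 5.28, 4.62 and 4.88 in BMM, 6.21, 6.60 and 6.29 in FLM_M and 5.13, 4.91 and 4.89 in FLM_G, so it rose in FLM_M (0.31, adjusted p = 0.00225) and lay 0.30 lower in FLM_G than in FLM_M (adjusted p = 0.00143). Tfb2m, the other initiation factor, rose by 0.16 in FLM_G. Of 16 genes of mitochondrial RNA processing and stability 5 rose and 5 fell. Rexo2, a nuclease that clears very short RNAs in mitochondria, rose from 98.3, 89.8 and 94.9 to 159, 149 and 164 (0.73, adjusted p = 1.33e-05), and Fastkd3, an RNA-binding protein of mitochondria, fell from 10.1, 10.2 and 10.3 to 5.30, 5.86 and 5.79 (-0.75, adjusted p = 1.36e-06). Pnpt1, a component of the mitochondrial RNA-degrading complex, rose in FLM_M (0.57, adjusted p = 0.000345).

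Of 7 tested regulators of mitochondrial biogenesis 2 rose and 4 fell in FLM_G against BMM. Esrra, a nuclear receptor that drives respiratory genes, rose from 11.6 to 13.9 in BMM to 17.2 to 20.5 (0.59, adjusted p = 0.000318), and Gabpa, an ETS factor that binds their promoters, fell from 10.2 to 10.7 to 5.33 to 7.35 (-0.65, adjusted p = 0.000868). Pprc1, a coactivator, fell in FLM_M with a wide spread, from 7.24, 7.96 and 7.90 to 3.27, 6.65 and 3.09 (-0.77, adjusted p = 0.0385). Mitochondrial ribosomal proteins, which serve only the mitochondrially encoded subunits, were divided: 20 of 77 rose and 15 fell in FLM_G against BMM (median 0.08). Mrpl41 rose by 1.19 (adjusted p = 1.79e-07) and Mrpl36 by 0.84, while Mrpl19 stood at 6.21 to 6.79 in BMM, 11.4 to 12.2 in FLM_M and 4.04 to 4.11 in FLM_G, a difference of -1.33 between the fetal liver groups (adjusted p = 4.25e-08).

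Around the respiratory chain, transcripts of several proteins that feed it, belong to the uncoupling protein family or exchange its products rose in FLM_G. Ucp2, an inner membrane carrier of the uncoupling protein family, measured 67.4, 78.4 and 77.4 in BMM, 45.2, 49.4 and 46.4 in FLM_M and 231, 262 and 279 in FLM_G. It fell in FLM_M (-0.65, adjusted p = 0.000298), rose in FLM_G (1.78, SE 0.08, adjusted p = 1.54e-07) and differed by 2.43 between them (adjusted p = 1.65e-08). Slc25a5, an ADP/ATP carrier, rose from 151, 158 and 153 to 334, 291 and 293 (0.98, adjusted p = 2.84e-06). Etfb, a subunit of the flavoprotein that brings electrons from fatty acid oxidation to coenzyme Q, rose from 38.9, 38.9 and 39.8 to 120, 120 and 121 (1.59, adjusted p = 2.86e-07), and was at 35.4, 46.3 and 41.1 in FLM_M. Coq10a, a coenzyme Q-binding protein, rose by 0.98, and Coq7, of its synthesis, by 0.66 in FLM_M. Beside those 33.8% and 34.1% of all genes, 10 of 16 electron carriers and coenzyme Q genes rose and 2 fell in FLM_G against BMM (median 0.26), as did 5 and 1 of 8 carriers (0.21) and 8 and 1 of 13 genes of the tricarboxylic acid cycle (0.28).

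In the cycle, Dlst, the succinyl-transferring part of the 2-oxoglutarate dehydrogenase complex, fell in FLM_M from 44.6, 46.2 and 48.2 to 31.6, 30.1 and 31.5 (-0.56, adjusted p = 1.21e-05) and was at 61.8, 62.0 and 60.2 in FLM_G, 0.96 above FLM_M (adjusted p = 1.11e-07). Idh3b, of the NAD-dependent isocitrate dehydrogenase, rose in both fetal liver groups, by 0.49 and 0.58. Of 30 assembly factors outside the name rule, 12 rose and 2 fell in FLM_G against BMM (median 0.13). In FLM_M against BMM 6 rose and 2 fell, beside 22.7% and 21.9% of all genes. Tmem70, which assembles ATP synthase, was scattered (4.061, 11.96 and 3.865 in BMM, 5.28, 14.3 and 13.4 in FLM_M and 18.4, 17.6 and 17.7 in FLM_G). Uqcc3, an assembly factor of complex III, fell in FLM_M (-0.53) and rose in FLM_G, with a difference of 1.11 between them (adjusted p = 1.21e-05), and Surf1, of complex IV, rose by 0.46 in FLM_M. On the deposited count table, which appears to follow the opposite strand, edgeR and DESeq2 turned the sign of the changes of Sdha, Uqcrh, Atp5a1, Surf1 and Mrpl19 in FLM_M and of Esrra in FLM_G against BMM.

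Promoters of nuclear respiratory genes are known for sites of NRF1 and of ETS factors. RefSeq promoter sequences (GRCm38.p6, 250 bases before to 50 after the start) were matched for 76 of the 89 nuclear members. The NRF1 palindrome, GCGC and GCGC with AT between them, was found in 7 of them (9.21%), beside 2.56% of the promoters of 8408 tested protein-coding genes. The ETS letters CCGGAAG, on either strand, were found in 19 (25.0%, beside 22.1%). Over all 27025 promoters of the RefSeq table, 1.07% held the NRF1 palindrome and 9.93% the ETS letters. Both strands were searched for each motif on its own, so that a promoter or a base can count under more than 1 of them, and the shares are a description with no test. The windows of 3 members whose palindrome lies outside the annotated gene are shown 5′ to 3′ on the gene's strand, with the palindrome in capitals.
Cox6a1 (chr5:115349095-115349136, - strand, 162 bases before the start): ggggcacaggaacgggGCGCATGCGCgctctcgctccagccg
Ndufa11 (chr17:56717686-56717727, + strand, 60 bases before the start): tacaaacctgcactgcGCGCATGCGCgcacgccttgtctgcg
Ndufaf4 (chr4:24897954-24897995, + strand, 113 bases before the start): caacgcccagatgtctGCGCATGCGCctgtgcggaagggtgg
The 7 genes with the palindrome changed by a median of 0.32 in FLM_G against BMM (0.24 to 0.52) and the 69 without it by 0.45 (-0.23 to 1.32).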

How the data were processed

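RNA of 9 libraries (3 per group) was sequenced as stranded poly(A) libraries, single-end over 101 cycles, per the labels' protocols. The deposited tables hold read counts and FPKM per gene. Per the submitters' processing notes, bcl2fastq, FastQC, cutadapt, HISAT2, StringTie and DESeq2 were used, and mm10 and GRCm38 are named as builds. The sources used here do not say which of these tools produced either table. The FPKM that the authors deposited are the main values. The deposited count table holds 782400 to 1170813 reads per library and gives mt-Nd6 a mean of 67527 counts, against under 1 for 6 heavy-strand genes such as mt-Co2, so it appears to follow the opposite strand and serves only as an alternative.

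FPKM were scaled by unweighted TMM (edgeR 4.0.16, factors 0.801 to 1.14). Genes at 1 FPKM or more in at least 3 libraries were kept, and log2(scaled FPKM + 1) was tested by limma 3.58.1 with a mean-variance trend over all 9 libraries (6 residual degrees of freedom), with Benjamini-Hochberg adjustment at 0.05 over 11952 genes. R was 4.3.3. Log2 changes are on that scale and understate those of low genes. The procedure was tested on simulated data, but the outcome is not given here and no error rate is drawn from it. Near-identical copies were found with BLAST+ 2.17.0. Replicate numbers did not pair the samples: deviations of same-numbered libraries correlated by -0.077 to 0.090.

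The genes named are all 13 mitochondrial members, up to 3 called members per complex and comparison of largest change with groups that do not overlap, a fixed set of catalytic or isoform-defining members, up to 2 called genes per pathway list and comparison, and the 2 most abundant uncalled members per complex. Others were chosen after their values were seen. Members and lists were chosen with earlier results of these data known. Alternatives were other scalings, filters, pseudocounts, edgeR or DESeq2 1.42.0 with the counts, a 1.5-fold threshold, a replicate block and leaving out each library. A result on 1 nuclear member is not reported here.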

Additional observations from a re-analysis of the deposited data

How the results depend on the processing

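The scaling mattered most for the nuclear members. Without scaling, 37 were called in FLM_G against BMM and 47 against FLM_M, with lower calls in the majority in the latter, where the median relative to all genes was 0.30. Rescaled over genes without mt- names, 52 and 63 were called, mostly lower (relative medians 0.33 and 0.25). With their copies also left out, a setting chosen after seeing the data, 45 and 58 were called, mostly lower (0.35 and 0.27). Under quantile normalization the mitochondrial calls were 3 (FLM_M against BMM), 6 (FLM_G against BMM) and 5 (FLM_G against FLM_M). Their relative medians for FLM_G were 0.22 and 0.15, and those of the nuclear members 0.31 and 0.23. The cause of the other shifts was not tested.

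The count table appears to follow the opposite strand, so its values may not measure the members' own transcripts. On it only 7 mitochondrial and 73 nuclear members, among 7490 genes, had enough counts to be tested. There edgeR called 1, 7 and 7 mitochondrial members in FLM_M against BMM, FLM_G against BMM and FLM_G against FLM_M, and DESeq2 2, 7 and 7. Nuclear calls were 4, 26 and 14 with edgeR and 1, 14 and 9 with DESeq2, and all-gene calls 1300, 2458 and 2855 and 933, 2070 and 2439. Relative nuclear medians were 0.18 and 0.62 with edgeR and 0.19 and 0.62 with DESeq2 in the first 2 comparisons. Tested against a 1.5-fold change, 0, 8 and 10 nuclear members and 1045, 2740 and 3162 genes were called. With only the 6 libraries compared, 1 mitochondrial member was called in FLM_M against BMM. The gap as a median over members was 0.026 in FLM_M against BMM and 1.58 in FLM_G against BMM. From log2 CPM of the counts it was -0.38, 0.70 and 1.08.

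Leaving out 1 library at a time gave 13 mitochondrial calls in both FLM_G comparisons and 0 to 1 in FLM_M against BMM (1 without BMM replicate 2, FLM_M replicate 2 or FLM_G replicate 1). Nuclear calls ranged over 16 to 33, 61 to 73 and 64 to 72 in FLM_M against BMM, FLM_G against BMM and FLM_G against FLM_M. The relative nuclear median in FLM_M against BMM ranged from -0.041 to 0.090 (0.090 without FLM_M replicate 1), and the gap from -0.25 to -0.06, 1.30 to 1.49 and 1.47 to 1.59.

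Without scaling, the reversed changes were in FLM_G against BMM Atp5a1 (-0.16), Atp5b (-0.28), Ndufb11 (-0.29), Atp5f1 (-0.31), Tfb2m (-0.21) and in FLM_G against FLM_M Sdhaf4 (-0.36), Ndufb9 (-0.41), Ndufa2 (-0.35), Atp5o (-0.39). Under quantile normalization, the reversed changes were in FLM_G against BMM mt-Nd1 (-0.10), Atp5a1 (-0.087) and in FLM_G against FLM_M mt-Nd1 (-0.040), mt-Nd2 (-0.10), mt-Atp8 (-0.069), mt-Atp6 (-0.026), Ndufb9 (-0.26). Rescaled without mt- genes, the reversed changes were in FLM_G against BMM Ndufa8 (-0.36), Sdha (-0.23), Sdhb (-0.28), Uqcrc2 (-0.14), Atp5g2 (-0.25), Atp5a1 (-0.37), Atp5b (-0.49), Ndufb11 (-0.50), Atp5f1 (-0.51), Ndufs1 (-0.26), Uqcrc1 (-0.31), Cox6a1 (-0.31), Cox7a2 (-0.27), Atp5c1 (-0.32), Atp5g1 (-0.33), Tfb2m (-0.40) and in FLM_G against FLM_M Sdhaf4 (-0.58), Cox7a1 (-0.45), Ndufb9 (-0.66), Ndufa2 (-0.60), Atp5o (-0.64). With copies left out as well, the reversed changes were in FLM_G against BMM Ndufa8 (-0.25), Sdhb (-0.17), Atp5g2 (-0.14), Atp5a1 (-0.26), Atp5b (-0.38), Ndufb11 (-0.39), Atp5f1 (-0.40), Uqcrc1 (-0.20), Cox6a1 (-0.20), Atp5c1 (-0.21), Atp5g1 (-0.23), Tfb2m (-0.30) and in FLM_G against FLM_M Sdhaf4 (-0.49), Cox7a1 (-0.36), Ndufb9 (-0.56), Ndufa2 (-0.49), Atp5o (-0.53). With edgeR on the counts, the reversed changes were in FLM_M against BMM Sdha (0.17), Uqcrh (0.30), Atp5a1 (0.12), Surf1 (-0.18), Mrpl19 (-0.24) and in FLM_G against BMM Esrra (-0.11). With DESeq2 on the counts, the reversed changes were in FLM_M against BMM Sdha (0.11), Uqcrh (0.25), Atp5a1 (0.053), Surf1 (-0.25), Mrpl19 (-0.31) and in FLM_G against BMM Esrra (-0.15). These lists do not hold every turn of sign. In FLM_G against BMM the lowest values over the alternatives were also negative for Ndufa4 (-0.13), Ndufv1 (-0.047), Idh3b (-0.037), mt-Co3 (-0.012) and mt-Co2 (-0.0088). In FLM_G against FLM_M that of Esrra was -0.15.

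Replicate numbers do not pair the libraries. With a replicate block all 15 main counts and differences kept their direction and size, with 22, 72 and 72 nuclear members called in the 3 comparisons, and of the single genes 174 kept direction and call, 4 lost the call and 1 gained it. Over all alternatives the single genes kept direction and call 3604 times, lost the call 322 times, gained it 41 times and reversed 66 times, counting only the reversals listed above. The depth behind single FPKM is known only roughly, so low genes such as Cox6a2 carry no counting interval.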

Other observations

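Other RNAs of the mitochondrial genome were also higher in FLM_G. Between the protein-coding genes the FPKM table lists mitochondrial tRNAs, which are short and poorly captured in poly(A) libraries. mt-Tm, the tRNA for methionine, stood at 6.45, 4.46 and 6.66 scaled FPKM in BMM, 5.280, 8.502 and 4.664 in FLM_M and 43.7, 54.6 and 64.8 in FLM_G, and mt-Tw at 33.02, 29.41 and 36.49, 17.1, 23.2 and 26.4, and 182, 166 and 164. By limma the changes in FLM_G against BMM were 3.01 (SE 0.22, adjusted p = 3.35e-06) and 2.34 (SE 0.14, adjusted p = 9.05e-07). mt-Tf was not called (-0.54, adjusted p = 0.199), with 3.69, 1.97 and 0.884 in BMM and 0.933, 1.26 and 0.976 in FLM_G. These 3 tRNAs were picked after their values were seen.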
